A study of Mus musculus with 2 samples.

Results

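The contactin genes Cntn1 to Cntn6 encode adhesion proteins of the immunoglobulin superfamily that are held on the cell surface by a glycosylphosphatidylinositol anchor. They are known mainly from neurons, where they act in axon growth, synapse formation and the sorting of the myelinated axon into domains, and they bind partners on the same or a neighbouring cell such as the contactin-associated proteins (Cntnap), L1-type adhesion molecules and receptor tyrosine phosphatases. In the gut wall, neurons belong to the enteric nervous system, which forms from neural crest cells during embryonic life. cJUN is one of the proteins that pair to form the transcription factor AP-1.

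The data are 1 list of 2741 cJUN peaks from chromatin immunoprecipitation and sequencing (ChIP-seq) of whole intestine, with 1 cJUN immunoprecipitate and 1 library of sheared input DNA. Both groups were wild-type C57BL/6 tissue at E14.5, taken from 1 litter of 8 embryos and kept for 24 h in transwell culture, with a rabbit polyclonal antibody used in the first group and no antibody in the other. The 6 contactins were taken as a family, and their peaks were chosen by the deposited gene column, which names up to 2 genes with a distance for each peak (2963 different names in all). This gave 9 peaks (0.328% of the list) for 5 contactins, while Cntn5 was listed at none. There is 1 library per group, so no value carries a replicate error and no test between groups was made. The embryos were pooled, the organ holds many cell types, and expression of the contactins was not measured here.

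Cntn3 had 3 peaks, Cntn4 and Cntn6 had 2 each, Cntn1 and Cntn2 had 1 each, and no peak was shared between 2 contactin genes. For comparison with the 5 of 6 contactins, 12.5% of all protein-coding genes had a peak listing them. Because the family was chosen with earlier results of these data known, that difference is a description. Of the 5 listed contactins, 3 had more than 1 peak, where 31.6% of all listed genes did. By the deposited distances, all 9 peaks lay away from the gene start, the closest at 10.2 kb and the farthest at 850.02 kb.

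**Figure D1:**
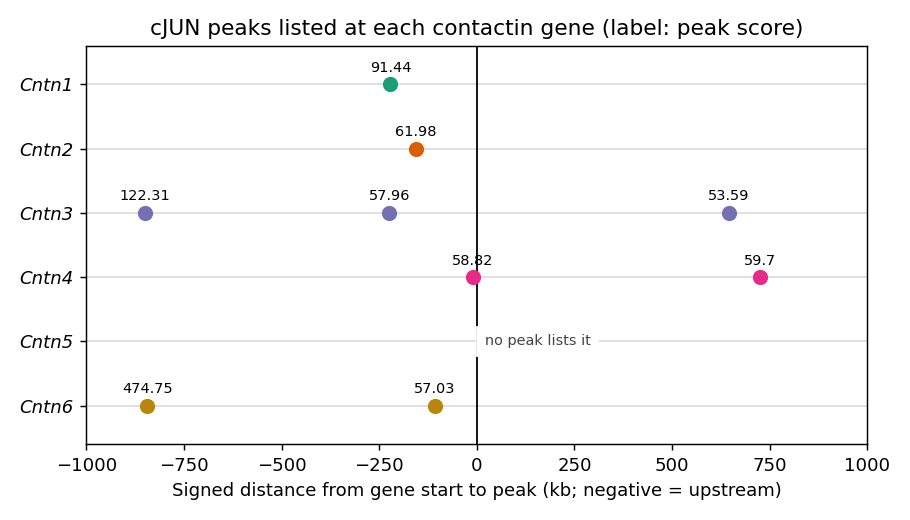
Signed distance in kb from each contactin's start to its peaks (x axis), by gene (y axis), with the score of each peak printed above its point. Points left of 0 are upstream: 7 of the 9 are, the nearest by deposited distance is that of Cntn4, and Cntn5 has none.

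Cntn1, the axonal partner of Cntnap1 at the paranodal junction beside the node of Ranvier, had a single peak at chromosome 15 from 91737289 to 91737670 (mm9). The peak was 381 bp long, lay 221139 bp upstream of Cntn1 and was enriched 7.54-fold over background, and it scored 91.44. The score equals 10 times −log10 of the p-value that the authors' caller gave, and this one stood at the 93.9th percentile of all peaks. The other gene listed at it, Smgc, a gene of a salivary gland secretory protein, was nearer, at 68.7 kb. A further peak at chromosome 15 from 92302285 to 92302437 lay 344 kb from the Cntn1 start and is listed at Pdzrn4 and, 803 kb away, at Gxylt1. The deposited column thus names the genes on either side of a peak (99.3% of 1068 peaks whose 2 listed genes have a known strand), so a gene behind a neighbour's start is not named.

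Cntn2, known from the juxtaparanodes of myelinated axons, also had 1 peak, at chromosome 1 from 134596054 to 134596236. It lay 156628 bp upstream of Cntn2 and only 42.2 kb from Nfasc, the gene of the L1-type adhesion molecule neurofascin. Its fold was 18.42 and its score 61.98, at the 53.8th percentile and near the middle of the list. The fold of 18.42 was shared by 653 peaks.

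The remaining 7 peaks lay on chromosome 6, where RefSeq orders the protein-coding genes Pdzrn3, Cntn3, Chl1, Cntn6, Cntn4 and Il5ra next to each other. Chl1 encodes the close homologue of the adhesion molecule L1. The 7 peaks, taken because each lists a contactin, ran from 101770210 to 106353541 over 4583 kb, and no other peak lay between them. The median gap between them was 736 kb, against 547 kb between neighbouring peaks of the whole list (quartiles 146 and 1283 kb). The starts of the genes, placed on mm9 from the deposited distances, were 1046 kb apart from Cntn3 to Chl1, 982 kb from Chl1 to Cntn6 and 1185 kb from Cntn6 to Cntn4. Each peak between contactins either had Chl1 as its second gene or was over 1 Mb from the next contactin. The nearest missed pairing was the Cntn4 peak at 105617442, which lay 1175 kb from Cntn6, and the longest listed distance was 998 kb apart from 1 listing in the whole list.

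**Figure D2:**
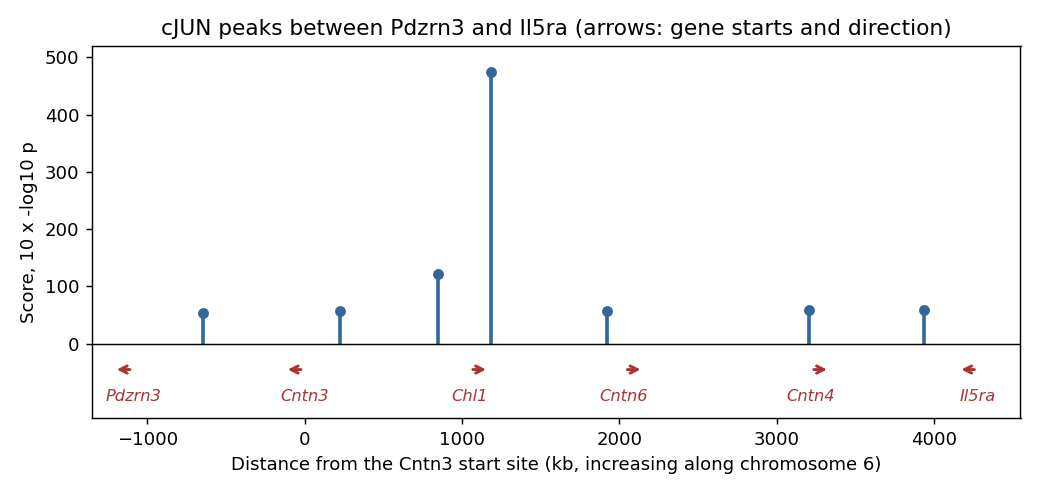
Score of the 7 cJUN peaks on chromosome 6 (y axis) against the distance in kb from the Cntn3 start (x axis), with arrows for the starts and directions of the genes. The peaks of 122.31 and 474.75 stand on either side of the Chl1 start, and the other 5 score between 53.59 and 59.7.

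Cntn3, also called BIG-1, had the most peaks. The first, at chromosome 6 from 102638976 to 102639127, lay 224391 bp upstream, its fold was 18.42 and its score 57.96, and Cntn3 was the nearer of its listed genes. The second, from 101770210 to 101770348, lay 644382 bp downstream, at a fold of 14.66 and the score 53.59, the lowest of the 9. It was nearer to Pdzrn3, a ubiquitin ligase gene, at 442 kb. The last, from 103264591 to 103264774, lay 850022 bp upstream of Cntn3 but 196 kb from Chl1, and reached a score of 122.31 (97.4th percentile) at a fold of 6.38. The peak that scored highest at Cntn3 was thus also the farthest from it.

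Cntn6, also called NB-3, was listed at the highest-scoring of the 9 peaks. This peak, at chromosome 6 from 103599040 to 103599289, scored 474.75, which ranked 18th among the 2741 peaks, with a fold of only 5.50. It lay 843751 bp upstream of Cntn6 and 138 kb downstream of the start of Chl1. The other peak of Cntn6, from 104334522 to 104334671, was 108319 bp upstream and scored 57.03 (percentile 22.0) at a fold of 13.10, and Cntn6 was nearer to it than Chl1, at 874 kb. Of the peaks of Cntn6, only the weaker by score therefore lay closer to Cntn6 than to its neighbour.

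Cntn4, also called BIG-2, is known for a part in the targeting of olfactory axons in mice. By deposited distance, it had the peak closest to any contactin. That peak lay at chromosome 6 from 105617442 to 105617589, 10223 bp upstream of the deposited start, and no second gene was listed. From the Cntn3 start, the peak lay at 3203 kb and the deposited Cntn4 start at 3213 kb. The Cntn4 starts whose promoter sequence was read from RefSeq lie at 3654 kb, and the deposited start is not among them. The closeness is therefore to the deposited start. The fold of this peak, 14.74, and its score of 58.82 (percentile 36.3) were below the medians of the list. The other peak of Cntn4, from 106353398 to 106353541, lay 725731 bp downstream of the deposited start and 342 kb from Il5ra, an interleukin receptor gene. It scored 59.7 at the same fold. A fold of 14.74 was shared by 438 peaks, and 20 peaks shared both the fold and the score of the closer one.

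Cntn5, also called NB-2, was the contactin with no peak. In RefSeq its neighbours on chromosome 9 are Arhgap42 and Jrkl, and neither was listed at a peak. Outward in that order of protein-coding genes, the next listed were Pgr, the progesterone receptor gene, on one side and Mtmr2, a lipid phosphatase gene, on the other, with 1 peak each. Between these peaks lay 2 others, at 12025331 to 12025422, which lists no gene, and at 12373588 to 12373751, which lists only Phxr4 at 861 kb. The stretch from the peak near Pgr to the first of them, 3241 kb, held no peak. As no deposited distance names Cntn5, its own distance to these peaks was not computed.

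As a group, the contactin listings had a larger median distance than the list as a whole. It was 224 kb over the 9 listings, against 144 kb over all 4694 listings (quartiles 48.9 and 351 kb). With the nearest listed gene only it was 108 kb over 3 peaks, against 89.0 kb over all peaks, and with a score of at least 60 it was 532 kb over 4 peaks, against 141 kb over all listings with such a score. Of the 9 listings, 4 exceeded 500 kb, where 16.4% of all listings did. These distances are the deposited ones. The 2 for Cntn4 run from a start 441 kb from those whose promoter sequence was read from RefSeq. The median score was 59.7 against 61.3 for all peaks, the median fold 14.66 against 16.75, and the median length 151 bp against 149 bp. Upstream listings made up 77.8% of the contactin listings and 48.1% of all. A contactin was the nearer or the only gene at 3 of the 9 peaks, 1 each for Cntn3, Cntn4 and Cntn6. In the whole list, the 4694 listings fell at 2741 peaks, 106 of which list no gene, and each other peak has 1 nearest gene. These differences were not tested, since peaks of 1 library at a few genes are not replicates.

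The 9 peaks differed in fold. The peak of Cntn1, the farthest of Cntn3 and the farthest of Cntn6 had folds of 7.54, 6.38 and 5.50, and these 3 had the highest scores of the 9 (91.44, 122.31 and 474.75) and lengths of 381, 183 and 249 bp. The other 6 had folds from 13.10 to 18.42 and scores from 53.59 to 61.98. In the whole list, 12.1% of peaks had a fold under 10, and their median score was 75.22 and median length 229 bp, against a median score of 60.6 for the rest.

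**Figure D3:**
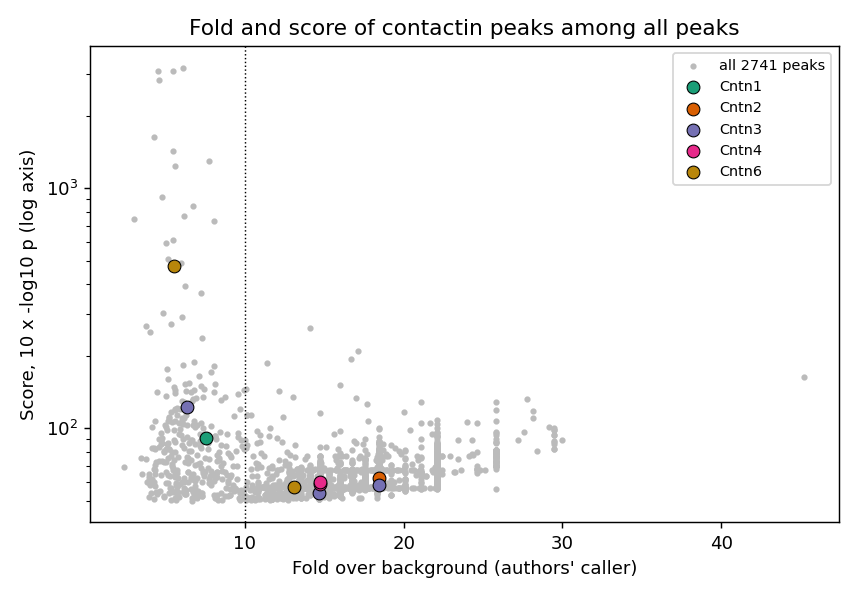
Score (y axis, log scale) against fold over background (x axis) for all 2741 peaks in grey and the 9 contactin peaks in colour by gene. The dotted line marks a fold of 10. The 3 contactin peaks left of it score 91.44 to 474.75 and the 6 right of it 53.59 to 61.98.

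Promoter sequence was read from RefSeq (GRCm38.p6) for all 6 contactins, as 10 windows of 250 bases before to 50 after an annotated start, to look for TGANTCA, a relaxed form of the site that AP-1 is known to bind. That motif, which reads the same on both strands apart from its middle base, was found in 1 of the 10 windows and in 7.81% of all 32851 windows. The related motif TGACGTCA, whose letters cannot overlap those of TGANTCA, was found in none of the 10 and in 1.79% of all. No stricter form of the site was searched for. The match, TGATTCA, was in a window of Cntn4, the contactin with the closest peak by deposited distance, and began 122 bases before the start. This window is shown with the window of Cntn6, the contactin at the highest-scoring peak, which holds no match. Capitals mark the motif, the strand is plus for both, and the windows are chr6:106118692-106118991 for Cntn4 and chr6:104492794-104493093 for Cntn6.
Cntn4: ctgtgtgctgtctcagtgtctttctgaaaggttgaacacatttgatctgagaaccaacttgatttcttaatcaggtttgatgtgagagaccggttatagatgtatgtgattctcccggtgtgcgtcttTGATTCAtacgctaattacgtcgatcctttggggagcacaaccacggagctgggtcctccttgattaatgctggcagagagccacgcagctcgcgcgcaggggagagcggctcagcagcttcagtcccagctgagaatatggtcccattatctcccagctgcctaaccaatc
Cntn6: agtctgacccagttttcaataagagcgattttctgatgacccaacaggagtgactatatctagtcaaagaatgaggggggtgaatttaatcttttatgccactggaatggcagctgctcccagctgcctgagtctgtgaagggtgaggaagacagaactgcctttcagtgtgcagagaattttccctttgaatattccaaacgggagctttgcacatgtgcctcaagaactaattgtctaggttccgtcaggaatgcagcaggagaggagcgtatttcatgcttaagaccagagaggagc
No contactin peak lay within 5 kb of a start, so no peak bears on these windows directly. The windows of Cntn4 also belong to a start other than the one the deposited distances use. From the Cntn3 start, RefSeq places the printed Cntn4 start 3654 kb away, 441 kb farther than the deposited start, whereas the Cntn6 start differed by 122 bp and that of Chl1 by 0 bp. The sequences under the peaks themselves were not analysed here.

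Among related genes, the contactin-associated proteins, some of which pair with contactins at axonal junctions, had 6 of 7 genes listed, at 12 peaks. Cntnap1, named above as the partner of Cntn1, was not listed. Their median distance was 604 kb and their median score 60.4. Cntnap3 led by score at 79.02 (321 kb away), followed by Cntnap5b at 76.49 (586 kb), Cntnap5c at 67.23 (46.0 kb), Cntnap2 at 64.62 (367 kb) and Cntnap5a at 60.6 (68.7 kb). Only 1 of their 12 peaks had a fold under 10, and none was also a contactin peak.

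Of 10 membrane partners of contactins, 4 were listed, and 5 of their 7 peaks were contactin peaks. All 4 peaks of Chl1 also list Cntn3 or Cntn6, and the 1 peak of Nfasc also lists Cntn2, so these genes add no peaks beyond the contactin ones. Nfasc was nearer to its peak than Cntn2. Chl1 was nearer than the contactin at the peaks scoring 122.31 and 474.75, and farther at those scoring 57.96 and 57.03. App, the amyloid precursor gene, had a separate peak 65.2 kb away with a score of 69.37, and Ptprz1, a receptor tyrosine phosphatase gene, had one 226 kb away with 52.1. L1cam, Nrcam, Ptprg, Notch1, Aplp1 and Aplp2 were not listed. Of 4 extracellular ligands, 1 was listed, while Tnr, Ptn and Vcan were not. It was Tnc, the tenascin C gene, with 2 peaks, and the higher score was 135.22 at 477 kb with a fold of 8.72.

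The IgLON family, other neural adhesion molecules with the same kind of membrane anchor, had 2 of 5 genes listed at 5 peaks. These were Lsamp with 3 peaks and a highest score of 63 at 43.1 kb, and Negr1 with 2 and 67.31 at 274 kb. Of 16 other neural immunoglobulin adhesion genes, 6 were listed. Cadm1 led with a score of 72.74 (428 kb), then came Ncam2 with 5 peaks and 69.79 (122 kb), Sdk2 with 64.83 (153 kb), Cadm2 with 64.62 (866 kb) and Robo2 with 60.15 (142 kb). All these shares exceed the 12.5% of protein-coding genes, but no test was made, and the lists were drawn up with results of these data known. The share of the membrane partners counts Chl1 and Nfasc, which are listed only at the chosen contactin peaks. That of the extracellular ligands rests on 1 listed gene.

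**Figure D4:**
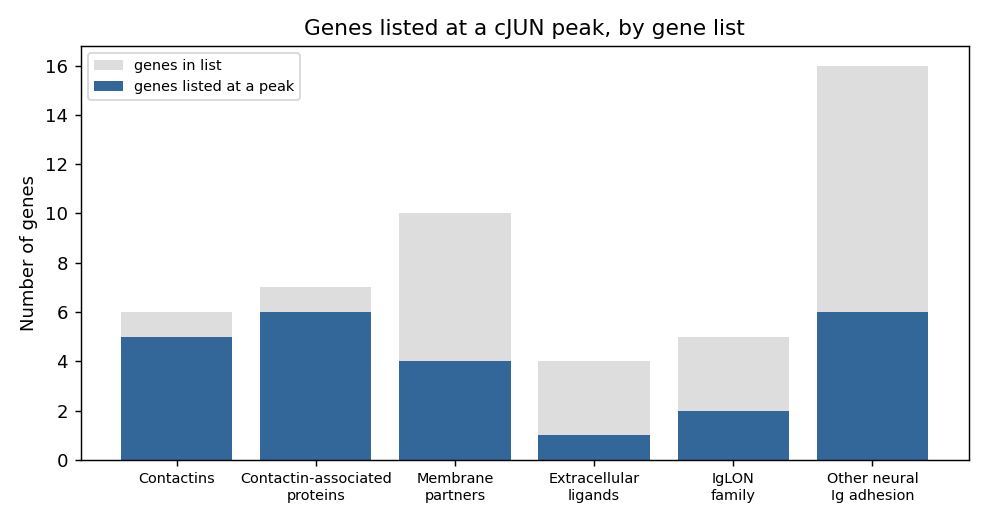
Number of genes in each list (grey bars) and number listed at a cJUN peak (blue part of each bar), with the lists on the x axis and genes on the y axis. The contactin bar, 5 of 6, shows what the choice of peaks used, beside 6 of 7 contactin-associated proteins and 4 of 10 membrane partners.

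The genes whose pattern was most like that of Cntn3 were sought among the 175 other names with 3 peaks, by the difference in log10 of the median distance within this 1 list. They were the predicted gene Gm9884 with a median of 643 kb, the kainate receptor gene Grik2 with 635 kb and the cystine transporter gene Slc7a11 with 659 kb, beside 644 kb for Cntn3. Their highest scores were 59.7, 67.58 and 77.43, below the 122.31 of Cntn3. That score belongs to the Cntn3 peak that lay nearer to Chl1, and the other Cntn3 peaks scored 57.96 and 53.59, below all of these.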

How the data were processed

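Per the submitters' processing notes, Bowtie 1.1.0 and MACS 1.4 were used with build mm9. How reads were filtered, how duplicates were handled, which threshold defined a peak and what assigned genes is not given in the sources used here. As deposited, the fold is each peak's ratio of immunoprecipitate to background. Per the file headers, the score equals 10 times −log10 of a p-value. Fold and score come from the authors and were used to rank and filter peaks of this list, for description alone. No library totals were used, and the depth is unknown.

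Coordinates are those of the deposited file. Genes were read from its gene column and matched, by symbol or an unambiguous synonym, to a RefSeq table of GRCm38.p6 (2870 of 2963 names), used for names, biotypes, gene order and strand. RefSeq promoter windows of the same build gave the printed sequences and the distances between starts set beside the deposited ones. Distances run from the peak midpoint. For genes with several peaks, the gene start was placed where all distances met within 1 bp, and a negative sign then meant upstream on the RefSeq strand in 603 of 608 genes (99.2%). Percentiles count ties as halfway. For genes with 1 peak, the start was placed from that distance and the RefSeq strand. Start placement was tested on simulated distances of genes with several peaks. These were made without error by the same sign rule, so that test checks the code alone. The analysis used Python 3.11.15, pandas 2.3.3 and numpy 2.4.6.

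The members and lists were chosen with earlier results of these data known. Genes named are the 6 contactins, every gene listed with one, up to 5 genes per related list by highest score, and the 3 names most like the contactin with the most peaks. Lists also name unlisted partners. Alternatives tried were a score of at least 60 or 100, a fold of at least 10, the nearest listed gene only, a limit of 500 kb, and counting peaks within 1 kb once.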

Additional observations from a re-analysis of the deposited data

How the results depend on the processing

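With a score of at least 60, 4 of the 9 contactin peaks were left, with a median distance of 532 kb and a median fold of 6.96, and Cntn4 was no longer listed. With a score of at least 100, 2 were left, both beside Chl1. With the nearest listed gene only, 3 peaks and 3 contactins (Cntn3, Cntn4 and Cntn6) were left, with a median distance of 108 kb, a median score of 57.96 and a median fold of 14.74. Within 500 kb of the contactin by deposited distance, 5 peaks were left, 1 for each of the 5 contactins. Their median score was 58.82 and their median fold 14.74. With a fold of at least 10, 6 peaks were left, with a median distance of 190.51 kb and a median score of 58.39, and Cntn1 was no longer listed. Which of the 9 peaks each setting keeps sets these medians. Counting peaks within 1 kb once left 9. The number of peaks shared between 2 contactins was 0 with a score of at least 60, with a fold of at least 10 and within 500 kb. It was already 0 in the whole list, and these settings only remove peaks or listings, so it could not change. With 1 library per group and unknown depth, neither the absence of a peak at Cntn5 nor small differences in score can be set against an error.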
